A study of Mus musculus with 2 samples.

Results

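The ligands and receptors of the epidermal growth factor (EGF) family were followed in single cells of mouse ileal enteroids, 3D cultures grown from intestinal crypts. The 10 genes are a list of names: the ligands *Egf*, *Tgfa*, *Areg*, *Ereg*, *Hbegf* and *Btc*, the receptors *Egfr*, *Erbb2* and *Erbb3*, and *Lrig1*, an inhibitor of the receptors. Of these, 9 had a row among the 16665 genes listed in either library, and *Ereg*, the epiregulin gene, had none in either.

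EGF family ligands are made as membrane-bound precursors, and a protease cuts them loose so that they reach the same or a neighbouring cell. They bind receptor tyrosine kinases of the ErbB family, which pair up and signal through Ras and Erk to drive division and survival. Crypt stem cells need this signal, which Paneth cells beside them can supply, and feedback inhibitors such as Lrig1 restrain it.

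The study asked what the loss of *Taf4*, which codes for a part of TFIID, the complex that recognizes core promoters, does to established enteroids. The library labelled Taf4 IEC came from Taf4 lox/lox::VilCreERT2 enteroids, in which tamoxifen activates a Cre recombinase under the epithelial villin promoter, given 1 µM 4-hydroxytamoxifen (4-OHT) for 3 days. The control library came from enteroids without the Cre transgene, Taf4 lox/lox according to the study and wild type according to its label. The study describes a control that received the drug as well, whereas the label names ethanol alone, so that an effect of the drug and an effect of the deletion cannot be told apart if the label holds. Mice of strain C57Bl6/129sv aged 4 months gave all enteroids. Live cells were sorted and captured on the 10X Genomics platform, with 1 library per condition. No test between conditions was therefore possible, and all 95% intervals below cover counting error only.

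The control library held 2563 cells with a median of 16749 unique molecular identifiers (UMIs, each standing for a captured RNA molecule), and the Taf4 IEC library 1811 cells with a median of 2254. Cells under 2000 UMIs made up 17.3% of control cells and 49.1% of Taf4 IEC cells. In all they held 39947009 and 24990128 UMIs, and they shared 2 cell barcodes. *Taf4* itself was not lower in the library labelled Taf4 IEC, with 236 UMIs against 278, or 0.0944 against 0.0696 per 10000 UMIs. The reads come from the 3′ end of transcripts, and whether they cover the deleted part is not given in the sources used here, so this count does not check the deletion, and every direction below is that of the library as labelled. A list of 11 stromal, vessel and immune markers summed to 0.00951 per 10000 in control and 0.0328 in Taf4 IEC cells, with 4 of the 11, *Ptprc* among them, having no row in either library.

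*Areg* and *Btc* lie near each other on mouse chromosome 5 (build GRCm38, *Areg* at chr5:91139599-91148432 and *Btc* at chr5:91357261-91402994), together with *Ereg* and *Epgn*. The RefSeq table of promoters (GRCm38.p6), which reaches from 250 bases before to 50 bases after a gene's start, held 7 of the 10 genes. It was searched on both strands for the cAMP response element TGACGTCA, which reads the same on either strand, and for the TATA box TATAAA. *Areg* was the only gene of the 7 with a match to either, and it had both, the first starting at position -61 and the second at -31 from the start. Of all 32851 promoter windows, 1.79% held TGACGTCA, 13.6% held TATAAA and 0.17% held both. The GC box GGGCGG, also searched on both strands and held by 35.7% of windows, was found for *Areg*, *Tgfa*, *Egfr* and *Lrig1* and not for *Egf*, *Btc* or *Erbb2*. The last 100 bases before the start are shown for *Areg* and for *Btc*, the pair of ligands whose levels are compared most often below, with TGACGTCA and TATAAA in capitals. The *Areg* stretch is chr5:91139499-91139598 on the plus strand and the *Btc* stretch chr5:91402995-91403094 on the minus strand.
Areg: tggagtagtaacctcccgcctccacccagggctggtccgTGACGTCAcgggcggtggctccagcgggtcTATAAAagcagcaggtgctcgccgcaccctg
Btc: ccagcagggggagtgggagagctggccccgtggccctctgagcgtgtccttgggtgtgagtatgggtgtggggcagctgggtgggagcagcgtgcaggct
The *Btc* stretch holds neither TGACGTCA nor TATAAA, and a match to letters says nothing of whether a factor binds.

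*Areg*, which codes for amphiregulin, was the ligand with the largest ratio between the libraries in UMIs summed over all cells. Over all cells it had 6477 UMIs in control and 13695 in Taf4 IEC cells, or 1.62 per 10000 (95% interval 1.58 to 1.66) against 5.48 (5.39 to 5.57). It was thus 3.38-fold higher, a log2 ratio of 1.76 (1.71 to 1.80). *Btc*, which codes for betacellulin, had 989 and 1169 UMIs, or 0.248 (0.232 to 0.264) against 0.468 (0.441 to 0.495) per 10000, and its log2 ratio of 0.92 (0.79 to 1.04) stayed just under 1. A log2 ratio of at least 1 in size, with at least 50 UMIs over both libraries, was the rule used to count a gene as higher or lower. By it 1 of the 9 genes, *Areg*, was higher and 0 were lower, where 8.31% of the 11941 genes with enough UMIs were higher and 4.38% lower. Their median log2 ratio was 0.31, beside 0.17 for all of these genes. Of the 11941 genes, 2.27% had a higher ratio than *Areg* and 9.81% a higher ratio than *Btc*. A scaling to totals without mitochondrial and ribosomal protein genes, *Gm42418* and *AY036118* moved the median of all genes to 0.01 and the ratio of *Areg* to 1.60.

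The other ligands differed less. *Tgfa*, which codes for transforming growth factor alpha, had 256 and 218 UMIs and a log2 ratio of 0.44 (0.18 to 0.71). That ratio was 1.10 when each cell weighed the same and 2.35 when each cell was thinned to 500 UMIs, where *Areg* was at 1.59 and 1.64 and *Btc* at 0.51 and 0.62. Thinning to 500 UMIs drops most UMIs of a deep cell, so that the thinned ratio of *Tgfa* rests on few UMIs. *Hbegf*, which codes for the heparin-binding ligand, was slightly lower, with 847 and 470 UMIs and a log2 ratio of -0.17 (-0.34 to -0.01). *Egf* was barely detected, with 27 UMIs in 27 cells of the control and 26 UMIs in 22 cells of the Taf4 IEC library. Its interval of -0.21 to 1.45 on the log2 scale holds both no difference and a more than 2-fold rise.

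The receptors and *Lrig1* lay closer to the median of all genes. *Egfr*, the EGF receptor, had 231 and 179 UMIs and a log2 ratio of 0.31 (0.02 to 0.60). *Erbb2*, the receptor that binds no ligand itself, had 562 and 381 UMIs and a log2 ratio of 0.12 (-0.08 to 0.31). *Erbb3*, the receptor for neuregulins, whose kinase is nearly inactive, had 1276 and 890 UMIs and a log2 ratio of 0.16 (0.03 to 0.28). *Lrig1*, with 1305 and 837 UMIs, had a log2 ratio of 0.04 (-0.09 to 0.16). The ratios of *Erbb2*, *Erbb3* and *Lrig1* have no settled direction, as they turned to -0.04, -0.003 and -0.12 with the reduced totals.

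**Figure D1:**
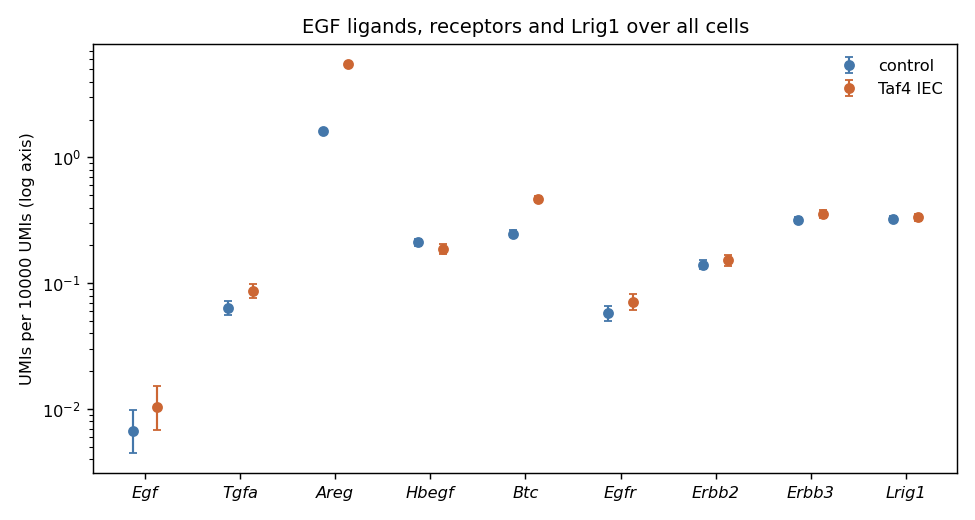
Level of each gene over all cells, in UMIs per 10000 UMIs on a log axis, in the control (blue) and the Taf4 IEC library (orange), with exact Poisson 95% intervals. *Areg* and *Btc* are the 2 genes whose points lie farthest apart. Counts from the 3′ end are not set against gene length, so heights should be compared within a gene and not between genes.

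To see which cells these differences came from, each library was clustered on its own, without the members among the clustering genes, and clusters were named from fixed lists of markers. Stem-like cells numbered 932 in control and 433 in Taf4 IEC cells, enterocyte-like cells 230 and 167, Paneth/goblet-like cells 274 and 186, and enteroendocrine-like cells 264 and 198. A tuft-like cluster of 15 cells was named in the Taf4 IEC library only, and 863 and 812 cells stayed unnamed. The tuft-like class depended on the setting, since both libraries clustered together gave 6 control and 11 Taf4 IEC cells. Stem, enterocyte, Paneth, goblet and enteroendocrine are the lineages of the crypt and villus: dividing progenitors, absorptive cells, cells that secrete defensins or mucus, and cells that secrete hormones. Of the unnamed cells, 42.4% in control and 74.4% in Taf4 IEC cells had under 2000 UMIs.

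Among control cells *Areg* was low in stem-like and high in enterocyte-like cells. Its level was 0.326 per 10000 (0.302 to 0.352) in stem-like cells and 6.93 (6.69 to 7.18) in enterocyte-like cells. Between them lay Paneth/goblet-like cells at 1.30 and unnamed cells at 2.57, and enteroendocrine-like cells were lowest at 0.147. Each class differed from the next in this order beyond counting error. Of the 3065 enterocyte-like UMIs, all but 1 were in the larger of the 2 control clusters of the class, the other having 16 cells.

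In the Taf4 IEC library the stem-like cells did not stand low. Their *Areg* level was 3.97 (3.84 to 4.10), from 3619 UMIs against 652 in the control, which is 12.2-fold higher (log2 ratio 3.61, 3.49 to 3.73). Only 22 of the 10494 genes with enough UMIs in stem-like cells had a higher ratio. Paneth/goblet-like cells reached 5.41, a 4.15-fold difference (log2 ratio 2.05, 1.92 to 2.19). Enterocyte-like cells, in contrast, had 7.0 per 10000 (6.76 to 7.25), a log2 ratio of 0.01 (-0.06 to 0.09). The difference between stem-like and enterocyte-like cells was therefore 21.3-fold in the control and 1.76-fold in the Taf4 IEC library.

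By the same rule, 2 of the 8 members with enough UMIs in stem-like cells were higher, *Areg* and *Btc*, where 5.67% of all genes were higher and 4.32% lower. The same 2 of 8 were higher in Paneth/goblet-like cells, where 3.83% of genes were higher and 4.1% lower. In enterocyte-like cells 0 of 7 were higher and 0 lower, against 2.72% and 2.38% of genes. The members below 50 UMIs were *Egf* in all 3 classes and *Egfr* in enterocyte-like cells, besides *Ereg*. The medians of the counted members in these classes were 0.55, 0.36 and -0.16, beside 0.19, 0.04 and 0.02 for all genes.

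The stem-like difference in *Areg* was seen in each cluster of the class. The 4 control clusters lay between 0.166 and 0.511 per 10000, and the 3 Taf4 IEC clusters at 1.90, 3.16 and 4.62, so that the ranges did not overlap. Clusters of a library are not replicates, and the share of all genes with such ranges was not computed. Clusters of like leading genes can be set side by side, a pairing made after their values were seen. The clusters led by S phase genes such as *Pclaf* and *Atad2* had 0.302 and 1.90, and those led by mitotic genes such as *Cenpf* and *Hmmr* had 0.511 and 3.16. A control cluster of 132 cells, also led by mitotic genes such as *Cdc20* and *Hmmr* but left unnamed, was nearer, at 0.913. The clusters with *Olfm4* and *Hes1* among their leading genes, which had little of the cycling marker *Mki67*, had 0.246 and 4.62. Left out in turn, no stem-like cluster of either library moved the log2 ratio outside 3.03 to 3.93.

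The stem-like cells of the libraries were not alike in all else. Their stem markers summed to 24.1 and 21.8 per 10000, cycling markers to 9.44 in control and 3.93 in Taf4 IEC cells, and Paneth/goblet markers to 10.9 and 28.3. The part of these differences in the *Areg* level was not tested. The size of the ratio also depended on which cells were called stem-like. It was 2.08 without regression of depth, with 262 Taf4 IEC cells in the class, and 1.51 when both libraries were clustered together, with 56 Taf4 IEC cells. In that last setting the ratio of Paneth/goblet-like cells was 1.63. Most Taf4 IEC cells also lost the stem-like name under a stricter threshold for markers, 2 in place of 1.5. The class then held 33 Taf4 IEC cells in place of 433, and 728 control cells in place of 932. The stem-like name of most of these Taf4 IEC cells thus rests on the lower threshold. Paneth/goblet-like cells differed between the libraries too, their own markers summing to 447 per 10000 in control and 1482 in Taf4 IEC cells. Their median depths were 16681 and 6993 UMIs, and 1.82% and 40.9% of them had under 2000 UMIs. The part of this in their *Areg* and *Btc* ratios was not tested.

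The difference was as large in deep cells. In stem-like cells with at least 2000 UMIs the levels were 0.325 and 3.98, and only 6 control stem-like cells were shallower. Over all cells under 2000 UMIs *Areg* was at 1.36 and 4.44, a log2 ratio of 1.71, against 1.76 over deeper cells. With each of these cells thinned to 2000 UMIs, 5.83% (4.41 to 7.54) of 926 control and 27.2% (22.5 to 32.4) of 327 Taf4 IEC stem-like cells held an *Areg* UMI, with 6 and 106 shallower cells left out. Without thinning the shares were 27.5% and 61.4%. In thinned enterocyte-like cells the shares were 56.3% (49.4 to 63.1) of 213 and 56.3% (47.2 to 65.0) of 128. The shallow enterocyte-like cells, with 9 and 40 *Areg* UMIs, were an exception to the level values, at 3.62 and 10.3 (log2 ratio 1.51, 0.44 to 2.74).

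RNA free in the droplets can add UMIs to cells that do not express a gene. In the Taf4 IEC library the main enteroendocrine-like cluster, of 128 deep cells (median 18502 UMIs), had 0.183 *Areg* UMIs per 10000 (0.132 to 0.246), and the tuft-like cells 0.234 from 5 UMIs. A deeper stem-like cluster, 181 cells with a median of 34607 UMIs, had 4.62 (4.45 to 4.79). The 219 Taf4 IEC stem-like cells of the cluster with a median of 2367 UMIs had 3.16. The other enteroendocrine-like cluster of this library, 70 cells with a median of 1084 UMIs, had 9.77. The Paneth/goblet marker *Lyz1* was at 18.1 per 10000 in the main Taf4 IEC enteroendocrine-like cluster and 1.43 in that of the control. It was at 0.342 in the deeper and 9.42 in the shallower of these stem-like clusters. The part of free RNA in any of these levels was not tested. In thinned enteroendocrine-like cells, shallow clusters included, 1.87% of 214 control and 10.0% of 140 Taf4 IEC cells held an *Areg* UMI, against 27.2% of Taf4 IEC stem-like cells. The median depths of the whole classes were 9937 and 12499 UMIs in enteroendocrine-like and 21561 and 24803 in stem-like cells.

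*Areg* varied widely between cells of a class. Among stem-like cells with at least 2000 UMIs, 72.5% of control and 28.1% of Taf4 IEC cells held no *Areg* UMI. The median level was 0 in control and 1.07 per 10000 in Taf4 IEC cells, the 90th percentile 0.959 and 8.40, and the highest cell 8.40 and 48.4. Among enterocyte-like cells the medians were 4.5 and 4.25. A single Taf4 IEC cell held 738 *Areg* UMIs, and without the highest cell of each library the log2 ratio over all cells was 1.70.

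Enteroendocrine-like cells gave a ratio that rested on a small cluster. *Areg* was at 0.147 in control and 0.670 in Taf4 IEC cells, a log2 ratio of 2.19 (1.67 to 2.74). Of the 166 Taf4 IEC UMIs, 123 were in a cluster of 70 mostly shallow cells (median 1084 UMIs) at a level of 9.77. Cells under 2000 UMIs held 17 of the 166, and deeper cells gave a log2 ratio of 2.04 (1.52 to 2.59). Without that cluster the log2 ratio was 0.31 (-0.35 to 0.98), and so not distinguishable from 0 by counting error.

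In the Taf4 IEC library unnamed cells held the highest level of *Areg*, at 2.57 in control and 9.09 in Taf4 IEC cells (log2 ratio 1.82, 1.75 to 1.90). A Taf4 IEC cluster of 59 cells with *Ly6d* and *Areg* among its leading genes reached 21.5, and without it the log2 ratio was 1.66. Another, of 152 deeply sequenced cells led by *Tmem237*, had 8.43. In the control, 301 cells led by *Nupr1* and *Tmem237* were at 3.44. The 2 higher members of 8 here were *Areg* and *Tgfa*, the latter at 0.0477 and 0.106 (log2 ratio 1.15, 0.55 to 1.78), where 7.87% of all genes were higher and 6.25% lower. With 10 principal components or with both libraries clustered together, 0 members were higher.

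**Figure D2:**
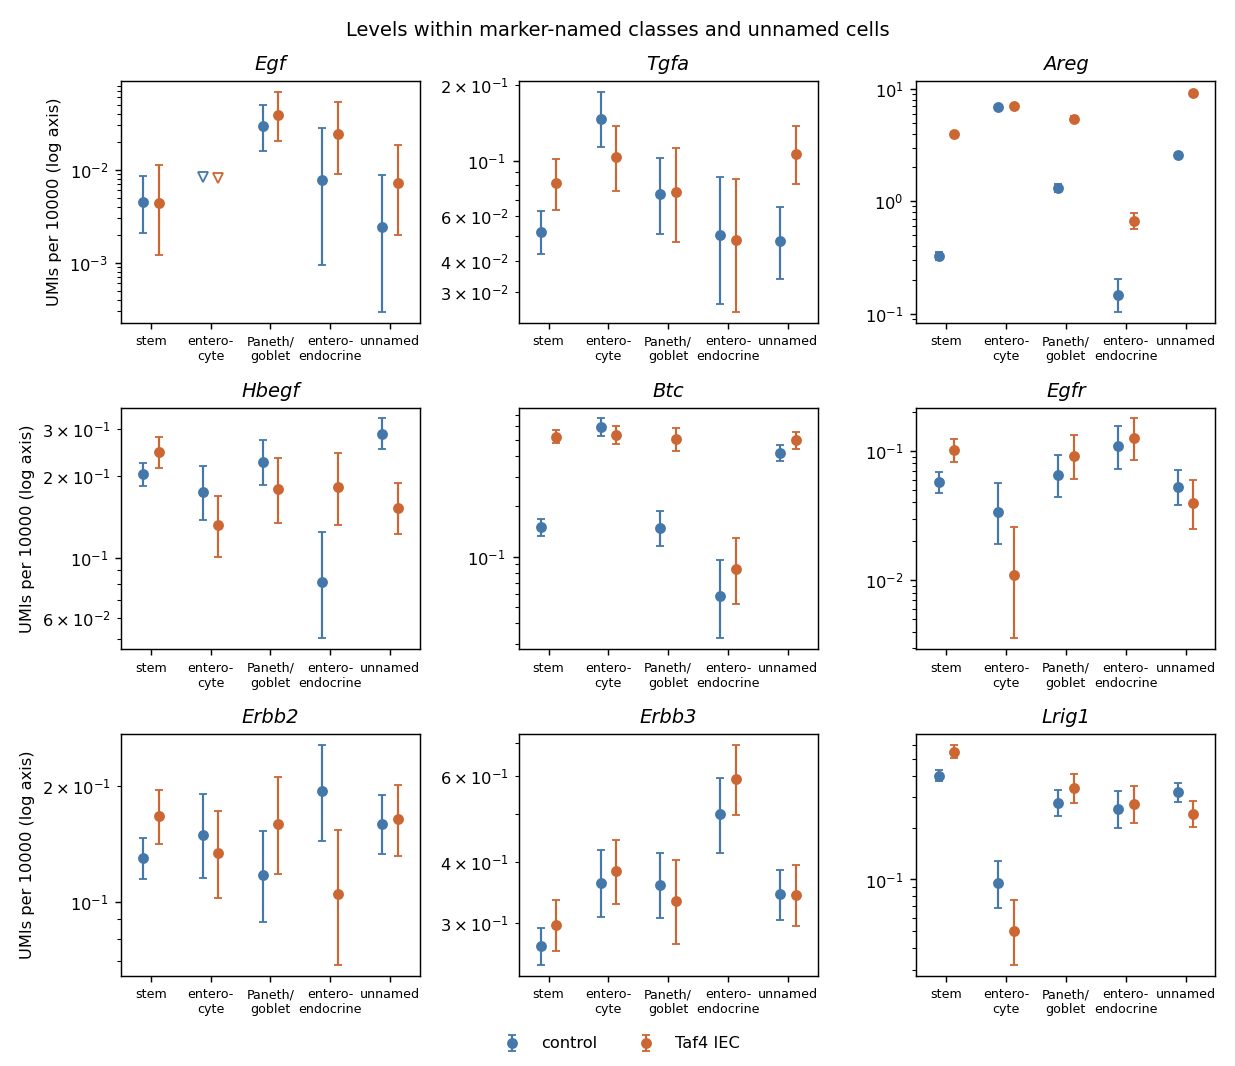
Level of each of the 9 genes in UMIs per 10000 (log axis, own scale in each panel) within 4 marker-named classes and unnamed cells, for the control (blue) and Taf4 IEC (orange) library, with exact Poisson 95% intervals. Open triangles mark the upper limit where no UMI was found. *Areg* and *Btc* are higher in Taf4 IEC stem-like and Paneth/goblet-like cells and level in enterocyte-like cells.

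*Btc* had an order of classes like that of *Areg* at lower counts. In the control it was at 0.593 per 10000 (0.523 to 0.669) in enterocyte-like cells, 0.418 in unnamed cells, 0.150 in stem-like and 0.149 in Paneth/goblet-like cells, and 0.0581 in enteroendocrine-like cells. In Taf4 IEC stem-like cells it had 474 UMIs and a level of 0.520 (0.474 to 0.569), 3.48-fold higher (log2 ratio 1.80, 1.59 to 2.01). In Paneth/goblet-like cells it was at 0.504, 3.39-fold higher (log2 ratio 1.76, 1.35 to 2.19). Enterocyte-like cells had 0.533, a log2 ratio of -0.15 (-0.41 to 0.11). Levels in Taf4 IEC enterocyte-like, stem-like, Paneth/goblet-like and unnamed cells thus lay within counting error of their neighbours in the order.

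The 4 control stem-like clusters had between 0.137 and 0.164 *Btc* UMIs per 10000, and the 3 Taf4 IEC clusters 0.315, 0.455 and 0.595. These ranges did not overlap either, with the same limit. The unnamed control cluster led by mitotic genes had 0.248, beside 0.315 in the Taf4 IEC stem-like cluster led by such genes. The share of thinned stem-like cells with a *Btc* UMI was 2.38% (1.49 to 3.58) in control and 7.95% (5.26 to 11.4) in Taf4 IEC cells. Without regression of depth in the clustering the stem-like log2 ratio was 0.94, which left *Areg* as the 1 member past the limit in that class.

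**Figure D3:**
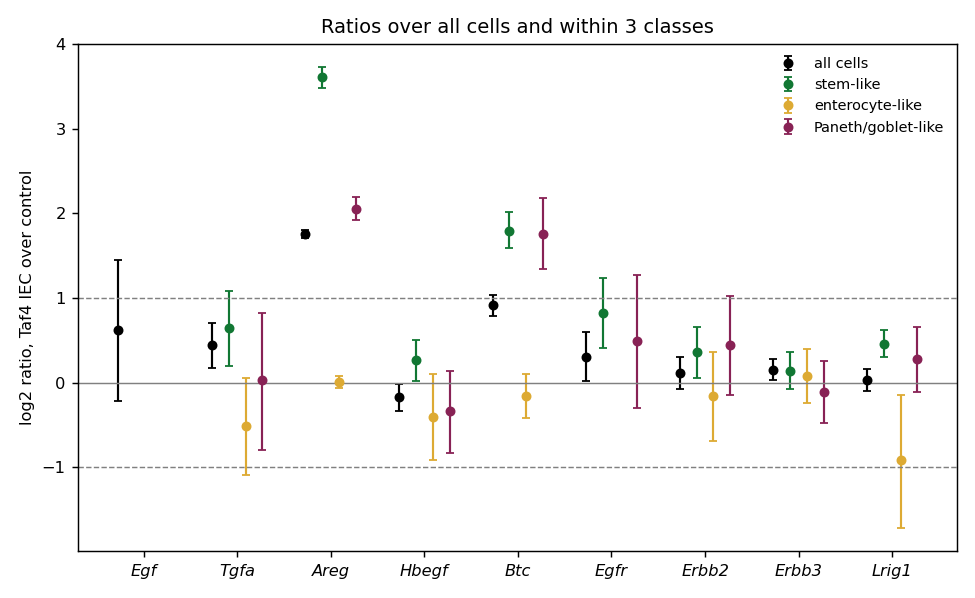
Log2 ratio of the Taf4 IEC over the control library for each gene over all cells (black) and within stem-like (green), enterocyte-like (yellow) and Paneth/goblet-like cells (purple), with exact conditional binomial 95% intervals. Points with under 50 UMIs over both libraries are left out, and dashed lines mark a log2 ratio of 1 in either direction. *Areg* and *Btc* pass the upper line in stem-like and Paneth/goblet-like cells and lie at 0.01 and -0.15 in enterocyte-like cells.

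The remaining ligands had other patterns. *Egf* had its highest level in Paneth/goblet-like cells, with 14 of its 27 control and 12 of its 26 Taf4 IEC UMIs, at 0.0293 and 0.0391 per 10000, though in both libraries these cells lay within counting error of the next class. Enterocyte-like cells held 0 *Egf* UMIs in either library, which allows up to 0.00834 and 0.00810 per 10000. *Tgfa* was highest in control enterocyte-like cells, at 0.147 (0.113 to 0.187) against 0.0733 in Paneth/goblet-like cells, the next in order. In stem-like cells *Tgfa* was at 0.0520 and 0.0812, a log2 ratio of 0.64 (0.19 to 1.09), and in enterocyte-like cells at 0.147 and 0.103, a log2 ratio of -0.51 (-1.08 to 0.05).

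In stem-like cells *Hbegf* was at 0.203 and 0.245, and in Paneth/goblet-like cells at 0.226 and 0.179. Its log2 ratio in stem-like cells was 0.27 (0.03 to 0.51), but -0.22 at resolution 0.5. It passed the limit of 1 in enteroendocrine-like cells, at 0.0814 and 0.182 from 21 and 45 UMIs (log2 ratio 1.16, 0.38 to 1.98). It and *Areg* were the 2 higher of 6 members with enough UMIs there, where 5.78% of genes were higher and 1.67% lower. None of the 45 UMIs came from the shallow cluster of 70 cells, and the log2 ratio without it was 1.23. The ratio rested on few cells, however. *Hbegf* UMIs were found in 18 of 264 control (6.82%) and 17 of 198 Taf4 IEC cells (8.59%). With cells thinned to 2000 UMIs the shares were 1.87% (0.51 to 4.72) and 2.86% (0.78 to 7.15). The interval of the ratio does not cover such differences between cells. In unnamed cells *Hbegf* had a log2 ratio of -0.91 (-1.29 to -0.55).

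Among the receptors, *Egfr* was highest in enteroendocrine-like cells, at 0.108 (0.0721 to 0.157) in control and 0.125 (0.0850 to 0.178) in Taf4 IEC cells. Its lowest levels were in enterocyte-like cells, with 15 and 5 UMIs or 0.0339 and 0.0110 per 10000. In the control each class lay within counting error of the next in order. Stem-like cells had 0.0570 (0.0470 to 0.0685) and 0.101 (0.0814 to 0.124). The log2 ratio was 0.82 (0.41 to 1.23), and 8.71% of genes had a higher ratio there. That ratio was -0.07 when both libraries were clustered together.

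*Erbb3* was highest in enteroendocrine-like cells of both libraries, at 0.50 (0.417 to 0.594) and 0.589 (0.498 to 0.693), and lowest in stem-like cells at 0.268 and 0.296, the latter within counting error of the next class. In both libraries the enteroendocrine-like level was above the next class in order, enterocyte-like cells at 0.362 and 0.382, beyond counting error. *Erbb2* showed no such order, its levels in the control classes running from 0.117 to 0.194 with each neighbour within counting error. In enteroendocrine-like cells *Erbb2* was at 0.194 in control and 0.105 in Taf4 IEC cells, a log2 ratio of -0.88 (-1.63 to -0.17) that did not reach the limit.

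*Lrig1*, which also marks stem cells, was highest in stem-like cells of both libraries, at 0.401 (0.374 to 0.430) and 0.553 (0.506 to 0.604). Its stem-like log2 ratio was 0.46 (0.30 to 0.63). Enterocyte-like cells had the lowest levels, 0.0950 and 0.0505 from 42 and 23 UMIs, with a log2 ratio of -0.91 (-1.71 to -0.15). In Paneth/goblet-like cells *Lrig1* was at 0.279 and 0.338 and in enteroendocrine-like cells at 0.256 and 0.275, ratios whose intervals hold 0.

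The mixture of classes differed between the libraries, so the level of each gene was also computed with the mixture held equal. With the classes weighted as in the control, the log2 ratio of *Areg* was 1.71, and with the weights of the Taf4 IEC library 1.36, beside 1.76 over all cells. For *Btc* the values were 0.98 and 0.74. For *Hbegf* they were -0.07 and -0.13, and for *Lrig1* 0.26 and 0.18.

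Across the 27 clusters of both libraries, the pattern of each gene was compared with those of 10002 genes by Pearson's r of log2(UMIs per 10000 + 0.1). The clusters share 2 libraries and differ in depth, so these values are descriptions. *Tcim* was most like *Areg* (r = 0.86), followed by *Btc* and *Ahnak* (0.84 each). *Btc* was most like *Areg*, followed by *Kitl*, which codes for the ligand of the receptor Kit (0.83), and *Dglucy* (0.78). Among the 8 members compared, which leaves out *Egf*, no other pair reached the r of *Areg* and *Btc*, the next being *Tgfa* and *Erbb3* at 0.57. *Areg* had an r of 0.02 with *Egfr* and 0.17 with *Lrig1*. *Lrig1* was most like *Nat10* (0.92) and *Erbb3* most like *Nkiras2* (0.93).

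**Figure D4:**
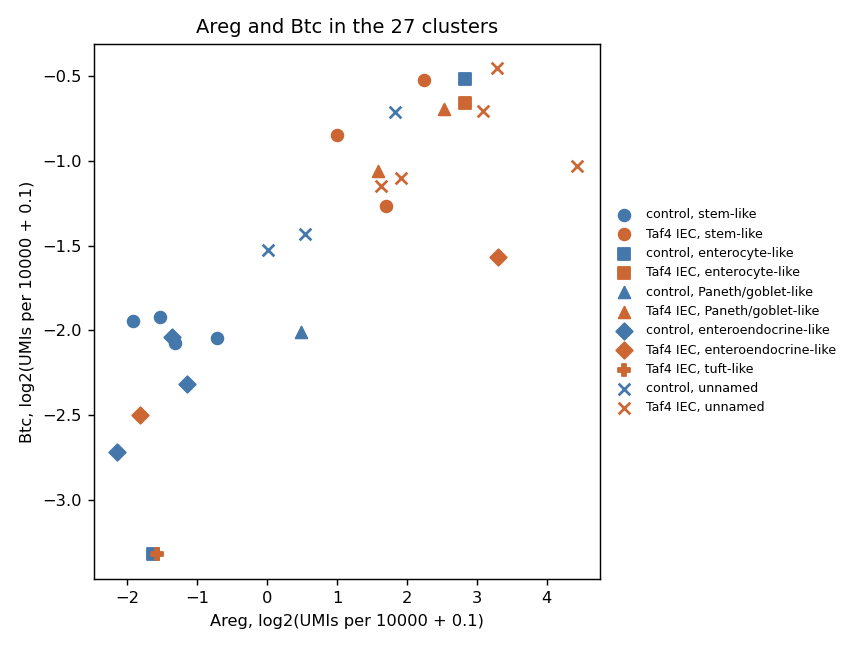
Level of *Areg* (horizontal) and *Btc* (vertical), each as log2(UMIs per 10000 + 0.1), in the 27 clusters, with colour for the library and shape for the class. Control stem-like clusters (blue circles) lie at the lower left and Taf4 IEC stem-like clusters (orange circles) nearer to the 2 large enterocyte-like clusters at the upper right. The square at the lower left is the control enterocyte-like cluster of 16 cells.

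The other genes of the pathway came from 5 lists. Of the other ligands and receptor (*Nrg1*, *Nrg2*, *Nrg3*, *Nrg4*, *Epgn*, *Erbb4*), only *Nrg4* had at least 50 UMIs, with a log2 ratio of 0.30. The 5 genes for proteases and their helpers that free the ligands, among them *Adam17*, had 0 higher and 0 lower, where 8.31% of all genes were higher and 4.38% lower, and a median of 0.42. The 16 genes for adaptors and the steps from Ras to Erk had 0 higher and 0 lower and a median of 0.20, beside 0.17 for all genes.

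The pathway genes past the limit were feedback inhibitors and targets of Erk. Of 12 inhibitors 1 was higher over all cells and 0 lower, a share near the 8.31% and 4.38% of all genes. This was *Dusp6*, a phosphatase that inactivates Erk, with 242 and 367 UMIs and a log2 ratio of 1.28 (1.04 to 1.52). Of 9 target genes 2 were higher and 0 lower, read against the same shares. *Ccnd1*, which codes for cyclin D1, had 1845 and 3385 UMIs (log2 ratio 1.55, 1.47 to 1.63), and *Etv4*, a transcription factor gene, 239 and 436 (1.54, 1.31 to 1.78). The medians of these lists were 0.35 and 0.18. The targets did not go one way, since *Ier2* and *Fos*, which are induced at once by many signals, had log2 ratios of -0.43 and -0.28.

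In stem-like cells 3 of 12 inhibitors and 3 of 9 targets were higher and 0 lower, where 5.67% of all genes were higher and 4.32% lower, with medians of 0.55 and 0.56 beside 0.19 for all genes. The inhibitors were *Dusp6* (log2 ratio 1.26, 0.87 to 1.65), *Lrig3* (1.2, 0.94 to 1.46) and *Dusp4*, another phosphatase of Erk (1.08, 0.83 to 1.34). The targets were *Ccnd1*, at 0.635 and 2.76 per 10000 (2.12, 2.02 to 2.22), *Etv4*, at 0.0855 and 0.352 (2.04, 1.77 to 2.32), and *Ier3*, at 0.348 and 1.16 (1.74, 1.60 to 1.88). *Fos* and *Ier2* were at -0.13 and -0.05, and *Etv5* at -0.49 (-1.16 to 0.14).

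In enterocyte-like cells, where *Areg* was level, 1 of 8 inhibitors was higher, where 2.72% of all genes were higher and 2.38% lower. It was again *Dusp6* (27 and 60 UMIs, log2 ratio 1.11, 0.43 to 1.82). Of 5 targets with enough UMIs 0 were higher or lower, and all 5 had ratios below 0, though some of their intervals hold 0. Their median was -0.26, beside 0.02 for all genes. Whether the ratios of these lists differ between classes was not tested.

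**Figure D5:**
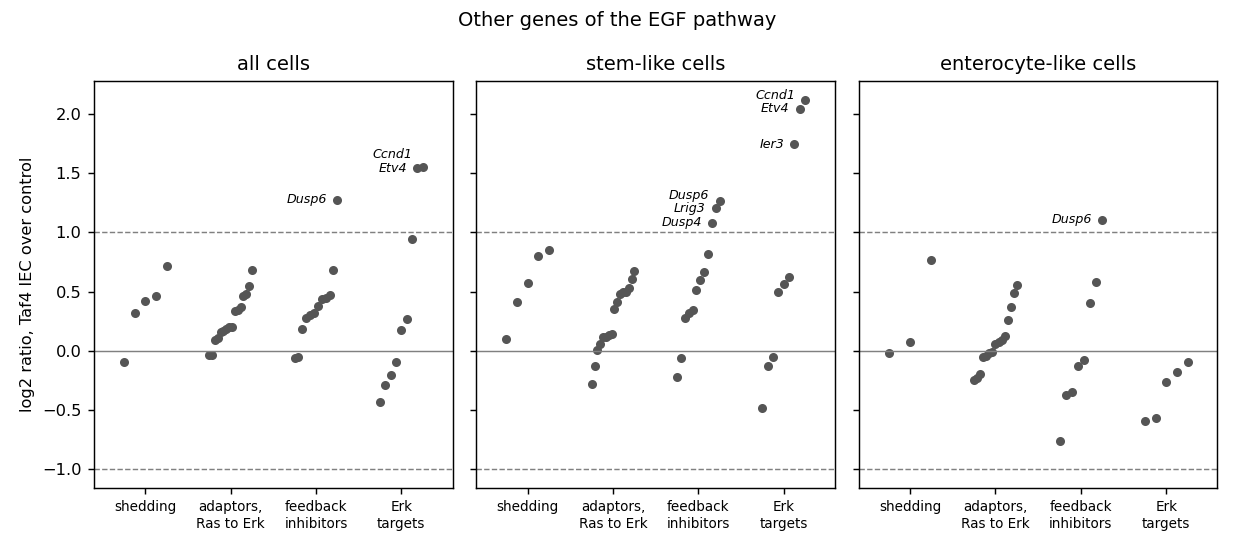
Log2 ratio of the Taf4 IEC over the control library for the pathway genes with at least 50 UMIs, over all cells (left), in stem-like cells (middle) and in enterocyte-like cells (right), with a point per gene and the genes past a log2 ratio of 1 named. Named points are *Dusp6*, *Dusp4* and *Lrig3* among the inhibitors and *Ccnd1*, *Etv4* and *Ier3* among the Erk targets.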

How the data were processed

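The deposited values are raw UMI counts, a table of genes by cells for each library, not normalized. According to the methods of the study and the processing notes of the submitters, the authors used Cell Ranger 3.1 with mm10 (GRCm38) and kept cells by genes and mitochondrial percent. All cells of both libraries were used.

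Members, marker lists and pathway lists were chosen with earlier results of these data known. UMIs were summed over cells and divided by the total. Intervals are exact Poisson for levels, exact conditional binomial for ratios and Clopper-Pearson for shares, at 95%. Each library was clustered with Seurat 5.3.0 in R 4.3.3 (2000 variable genes without the members, 20 principal components, resolution 0.9, UMI count and mitochondrial percent regressed out). A cluster was named when at least 3 markers of a class, each with at least 10 UMIs, reached 1.5 times the mean level of both libraries and its 10 leading genes did not speak for another class or for low quality. This naming rule had been set in earlier work with the marker tables of these data in view. Clusters below it stayed unnamed. Scrublet marked 10 control cells (0.390%) and 0 Taf4 IEC cells as doublets, a share too low to rely on, and they were kept. Levels and intervals were computed with Python 3.11.15, numpy 2.4.6 and scipy 1.17.1, and tested on simulated data. Of pathway genes, those past a log2 ratio of 1 were named, up to 6 a list, and of genes of like pattern the 3 highest for each member were computed. The values of *Ier2*, *Fos*, *Etv5* and of the genes that lead clusters had been seen when these were picked for naming.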

Additional observations from a re-analysis of the deposited data

How the results depend on the processing

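No paired analysis was possible because each condition had 1 library and the labels carry no shared replicate numbers. The log2 ratio of *Areg* over all cells kept its direction under all 7 alternatives and ranged from 1.59 to 1.76, and that of *Btc* from 0.51 to 0.93. Under 16 alternatives the stem-like ratios ranged from 1.51 to 3.93 for *Areg* and from 0.94 to 1.94 for *Btc*, and under 9 alternatives the Paneth/goblet-like ratios ranged from 1.63 to 2.06 and from 1.52 to 1.81. In enterocyte-like cells *Areg* ranged from -0.20 to 0.33 and was above 0 in 8 of 9 alternatives. The alternatives that leave out a cluster were chosen after seeing the data.

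The number of members past a log2 ratio of 1 moved as follows, and the cause was not tested. With the mean over cells in place of the sum 3 were higher over all cells, and without regression 1 in stem-like cells. In stem-like cells 3 were higher in 2 other settings, with *Lrig1* at 1.04 where a marker counted from 2 times and with *Egfr* at 1.05 without the control cluster led by *Olfm4*. In enterocyte-like cells 1 was lower at resolution 1.4 or from 10 UMIs on. In enteroendocrine-like cells 1 was higher with 10 principal components, with both libraries clustered together, from 200 UMIs on or without the shallow cluster, and 1 was lower with 10 principal components. In unnamed cells 1 was higher at resolution 0.5 or from 200 UMIs on, 0 with 10 principal components or both libraries together, and 1 was lower without the Taf4 IEC cluster led by *Ly6d*. With cells thinned to 500 UMIs *Egf* had no UMI in a library and gave no ratio.

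Low counts limit *Egf*, *Egfr* and *Tgfa* within classes, and with 1 library per condition differences between cultures cannot be told apart from those of the deletion.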
